A study of Mus musculus with 19 samples.

Results

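The nuclear genes for subunits of respiratory complex III, complex IV and the ATP synthase were followed through mouse LSK cells and common myeloid progenitors (CMPs) that expressed an shRNA against the lncRNA *Spehd* or against *Renilla* luciferase. Members were taken by symbol alone, as every counted gene that begins with Uqcr, with Cox4 to Cox8 or with Atp5 and goes on as a subunit name does, plus *Cyc1* and *Cycs*. The rule found 46 of the 54352 genes counted, which are 9 genes of complex III, 19 of complex IV, 17 of the ATP synthase and *Cycs*, the gene for cytochrome c. Isoforms of heart, muscle, lung and testis were kept in, and so was *Cox6c2*, a processed pseudogene.

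Complex III takes electrons from ubiquinol and hands them to cytochrome c, a small carrier protein of the intermembrane space. Complex IV passes them on to oxygen, both complexes move protons across the inner mitochondrial membrane, and the ATP synthase lets the protons back to make ATP. Most subunits are encoded in the nucleus, a few in mitochondrial DNA, and hematopoietic stem cells are known to rely less on respiration than the progenitors that come from them.

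The study asked what loss of *Spehd* does to the transcripts of progenitors. C57BL6 E-SLAM HSCs transduced with a doxycycline-inducible shRNA vector were transplanted into sub-lethally irradiated C57BL/6-CD45.1;cKit-w41 recipients. After 10 weeks of reconstitution and 6 days of doxycycline food, zsGreen+ cells were sorted as LSK cells (Lin-, Sca1+, cKit+, called KLS in the labels), a mixture of stem cells and multipotent progenitors, or as CMPs. CMPs gave 3 libraries with the first *Spehd* shRNA (sh10), 2 with the second (sh20) and 4 with the 713 *Renilla* control, and LSK cells gave 3, 3 and 4. Every group, controls included, thus carried a vector and received doxycycline, and recipient cells of these mice lack full *Kit* function. The labels do not say that libraries of 1 group came from separate animals, so p-values measure the spread between these libraries, which may be technical.

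Total counts on genes ran from 3647318 to 5965155, a 1.64-fold range, and the members took 0.308 to 0.455% of them. No counted gene has the name *Spehd*, so its level is not analysed here. Of the markers listed for LSK cells, 8 of 10 were lower in CMPs when the *Renilla* controls of both cell types were compared. Of 9 myeloid progenitor markers, 8 were also lower in CMPs, against the label, and their summed level was 491 to 691 CPM in CMPs and 1047 to 1325 CPM in LSK cells. Of 10 erythroid markers 8 were higher in CMPs (summed level 1410.5 to 1592 against 504 to 653 CPM), as were 4 of 5 megakaryocyte markers (779 to 1397 against 491 to 771 CPM). Mature neutrophil markers were lower in CMPs for 6 of 8 and varied most among LSK *Renilla* libraries, from 5.71 to 320.4 CPM. Of 8 lymphoid markers tested 3 were higher in CMPs (179 to 257 against 181 to 224 CPM), and 2 of 5 macrophage markers were lower (178 to 339 against 310.1 to 456 CPM). In the libraries labelled CMP most erythroid and megakaryocyte markers were thus higher, and most LSK, myeloid progenitor and neutrophil markers lower. Some libraries stood apart from others of their group. A chi-square of the counts per gene was 4.31 to 8.07 between libraries within CMP sh10 and within either *Renilla* group, 27.8 between the 2 CMP sh20 libraries and 13.9 to 18.3 among LSK sh20 libraries, and LSK sh10 replicate B differed from replicates A and C by 37.7 and 45.2, where these differed by 5.24. In bulk RNA, fewer cells of a type and less RNA per cell cannot be told apart.

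RefSeq windows of 300 bases, from 250 before to 50 after the annotated start on GRCm38.p6, were found for 32 of the 46 members. They are shown because several respiratory genes share recognition sequences of NRF1 and of ETS factors, known activators of respiratory genes, while 17 of the 32 members held neither, among them *Cox6b2*, which had the largest fold of the members called between CMPs and LSK cells with *Renilla* shRNA. The NRF1 sequence, GCGCA followed by any base and GCGC, was found on either strand in 8 of the 32 members (25%) and in 5.19% of 27025 genes. The ETS sequence CCGGAAG was in 10 members (31.3%) and in 9.93% of genes, and the YY1 sequence AANATGGCG in 3 members (9.38%) and in 2.76%. CCAAT was in 18 members (56.3%) against 41.1% of genes, and TATAAA in 3 members (9.38%) against 15.7%. The windows of *Uqcrc1* (chr9:108936398-108936697, plus strand), of *Cox6a1* (chr5:115348909-115349208, minus strand) and of the paralogs *Cox6b1* (chr7:30626065-30626364, minus strand) and *Cox6b2* (chr7:4753045-4753344, minus strand) follow 5′ to 3′, each read on the strand of its gene. Capitals mark NRF1 and ETS matches on either strand.
Uqcrc1: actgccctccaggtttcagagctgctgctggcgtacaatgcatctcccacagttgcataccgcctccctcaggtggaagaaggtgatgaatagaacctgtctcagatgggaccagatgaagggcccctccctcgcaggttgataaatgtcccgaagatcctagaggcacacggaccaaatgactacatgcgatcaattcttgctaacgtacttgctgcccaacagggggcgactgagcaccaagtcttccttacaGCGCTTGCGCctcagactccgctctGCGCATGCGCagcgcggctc
Cox6a1: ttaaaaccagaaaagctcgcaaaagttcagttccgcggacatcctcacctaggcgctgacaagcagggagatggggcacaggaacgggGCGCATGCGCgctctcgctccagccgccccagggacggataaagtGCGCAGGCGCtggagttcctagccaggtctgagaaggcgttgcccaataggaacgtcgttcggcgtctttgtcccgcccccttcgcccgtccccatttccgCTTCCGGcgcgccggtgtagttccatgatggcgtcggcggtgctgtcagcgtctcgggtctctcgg
Cox6b1: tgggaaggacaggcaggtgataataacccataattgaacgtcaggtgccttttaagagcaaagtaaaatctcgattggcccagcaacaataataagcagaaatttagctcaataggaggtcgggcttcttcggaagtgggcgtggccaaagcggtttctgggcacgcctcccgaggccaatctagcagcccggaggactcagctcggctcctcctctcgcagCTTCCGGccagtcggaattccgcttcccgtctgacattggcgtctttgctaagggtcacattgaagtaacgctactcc
Cox6b2: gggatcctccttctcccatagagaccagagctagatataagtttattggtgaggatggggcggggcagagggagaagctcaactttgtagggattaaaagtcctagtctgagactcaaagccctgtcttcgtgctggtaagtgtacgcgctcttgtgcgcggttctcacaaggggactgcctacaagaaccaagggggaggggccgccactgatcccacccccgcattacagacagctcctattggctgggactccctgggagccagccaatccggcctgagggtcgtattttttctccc
*Uqcrc1* held 2 NRF1 matches just after its start, and *Cox6a1* held 2 upstream and 1 ETS match. *Cox6b1* held 1 ETS match. A match is a description of letters, and binding was not measured.

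Per kilobase of exon, the members spread over a wide range of levels, and most subunits of the 3 complexes were among the higher ones. Over the 19 libraries, *Atp5b*, the catalytic beta subunit of the ATP synthase, had 186 ± 24.3 CPM per kb (SD, n = 19). *Uqcrc1*, a core protein of complex III, followed with 180 ± 22.7, *Atp5g3* with 172 ± 22.2 and *Cox4i1*, a regulatory subunit of complex IV, with 157 ± 21.2 CPM per kb. Each differed from the next by less than its SD. The 26 most abundant members, down to *Atp5j2* with 62.9 ± 8.06 CPM per kb, all had at least 0.3 counts per exonic base, and 8 more, from *Cox7b* with 57.5 to *Cox7a2l* with 36.01 CPM per kb, had 0.1 to 0.3. *Cycs* stood far lower, at 1.85 ± 0.812 CPM per kb. Low genes were *Cox7c* (14.97 ± 3.80), *Atp5l* (14.5 ± 6.42), *Cox6a2* (5.27 ± 3.99), *Cox4i2* (2.10 ± 2.06), *Atp5g2* (1.94 ± 1.33) and *Atp5g1* (1.44 ± 0.582 CPM per kb).

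Parts of some transcripts are not unique. Shared 50-base stretches made up 84.9% of *Atp5l*, 43.4% of *Uqcrb*, 38.4% of *Atp5g2*, 37.6% of *Atp5f1*, 36.9% of *Atp5h*, 35.8% of *Atp5o*, 32.1% of *Cox5a*, 28.5% of *Cycs* and 24.2% of *Uqcrc2*, so the counts of these genes are uncertain. On the other strand, *Gm26631* overlaps 41.7% of *Cox5a* and *Pdzd9* 26.6% of *Uqcrc2*. Reads from both partners cannot be told apart, since the kit does not mark strand.

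**Figure D1:**
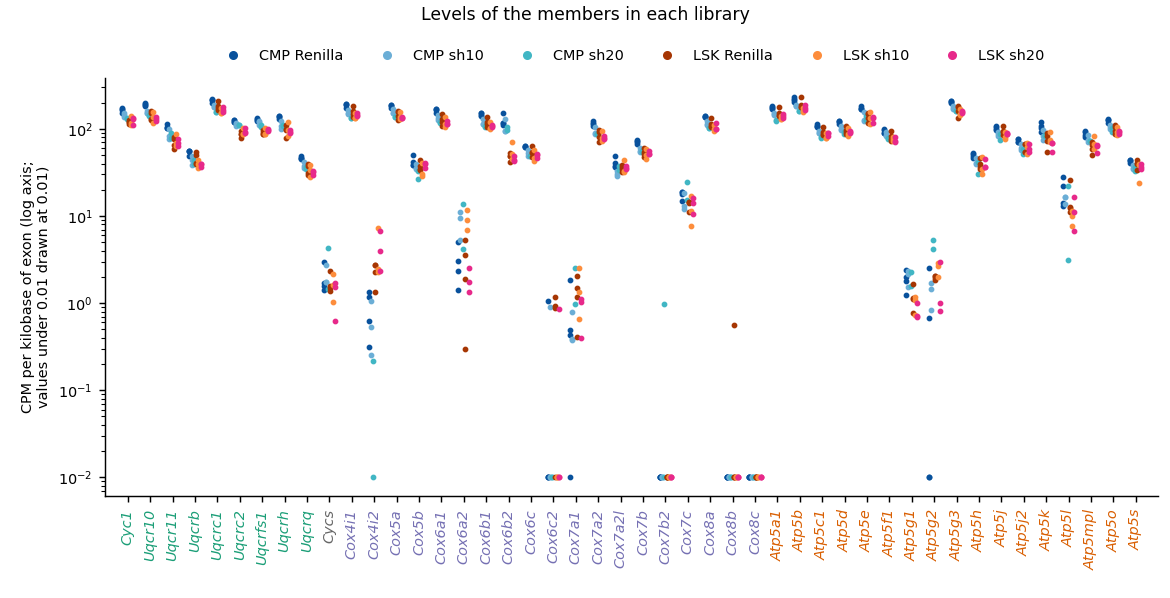
Level of each of the 46 members in CPM per kilobase of exon (log axis), 1 point per library, coloured by the 6 groups and ordered within complexes, with values under 0.01 drawn at 0.01. Atp5b, Uqcrc1 and Atp5g3 lie at the top, with group means of 159.9 to 218, 156 to 212 and 155 to 206 CPM per kb, and Cox8c, Cox8b and Cox7b2 lie at or near 0.

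The paralogs of complex IV were not used equally. *Cox4i1*, *Cox6a1*, *Cox7a2* and *Cox8a*, the widely expressed forms, had counts in every library. *Cox8c*, a testis form of subunit 8, had 0 counts in all 19 libraries, which allows up to 0.823 CPM in the shallowest one. *Cox8b*, a muscle form, had 1 count in all, and *Cox7b2*, a testis form, had 3 in 1 library. *Cox7a1*, of heart and muscle, had 0 to 8 counts per library, and the pseudogene *Cox6c2* had 0 or 1. These 5 genes did not pass the filter on low counts, and the other 41 did when all libraries were filtered together.

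*Cox6b2*, known as the testis form of subunit 6b, was the exception. Its share of *Cox6b1* and *Cox6b2* together, per kilobase, ran from 43.3 to 51.2% in the 9 CMP libraries and from 26.5 to 37.3% in the 10 LSK libraries, with no overlap. Among the 3 genes for the identical mature c-ring subunit, *Atp5g3* made up 95.5 to 99.4% per kilobase in every library. This share depends on exon length, 4912 bases for *Atp5g1*, 731 for *Atp5g2* and 724 for *Atp5g3*. Raw counts per library were 14 to 63, 0 to 22 and 460 to 685. Stretches shared with other genes made up 11.1% of *Atp5g1*, 38.35% of *Atp5g2* and 0% of *Atp5g3*. Reads aligned more than once were not counted, so the share of *Atp5g3* may be too high. *Cox4i2*, the lung form of subunit 4, made up 0 to 0.687% of subunit 4 in CMPs and 0.963 to 4.54% in LSK cells. *Cox7a2l* made up 23.9 to 29.2% of its family in CMPs and 25.9 to 31.1% in LSK cells, and these ranges overlapped.

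CMPs and LSK cells were compared first with the *Renilla* control, to ask whether these genes rise between the populations. Of the 41 members tested, 39 had a positive log2 fold change of CMP over LSK, with a median of 0.32, and 17 rose and none fell at an FDR of 0.05 (edgeR, quasi-likelihood, Benjamini-Hochberg over every gene tested). Of all 15066 genes 11.0% rose, and the median was -0.02. Among the 1742 genes with at least 0.3 counts per exonic base, 530 were called higher and the median was 0.17. The 26 members of that class had a median of 0.33. Complex III had the largest share, with 7 of its 9 genes higher and a median of 0.45. In complex IV 6 of 14 tested genes were higher, with a median of 0.29, and in the ATP synthase 4 of 17, with a median of 0.32.

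*Uqcrc2*, the second core protein of complex III (ENSMUSG00000030884.12, chr7:120635176-120659524, plus strand), had 238, 238, 227 and 229.7 CPM in the CMP *Renilla* libraries and 149, 166, 177 and 166 CPM in the LSK *Renilla* libraries. The groups did not overlap, and the log2 fold change of CMP over LSK was 0.50 (standard error, SE, 0.07, adjusted p = 0.000165, edgeR). Its raw counts were 904 to 979 in CMPs and 650 to 826 in LSK cells, so they too did not overlap.
*Uqcrfs1* encodes the Rieske iron-sulfur protein of complex III (ENSMUSG00000038462.3, chr13:30540308-30545362, minus strand). It had 168 to 183 CPM in CMP and 118 to 131 CPM in LSK *Renilla* libraries, a log2 fold change of 0.49 (SE 0.08, adjusted p = 0.000298, edgeR).
*Cyc1*, the cytochrome c1 of the complex (ENSMUSG00000022551.8, chr15:76343523-76346260, plus strand), had 229 to 266 CPM against 176 to 195 CPM, a log2 fold change of 0.45 (SE 0.09, adjusted p = 0.00151, edgeR). All 3 differed by more than the spread between libraries, and all 3 passed the threshold in each of 29 alternative analyses. Small subunits were also called. *Uqcr11* rose by 0.58, the hinge protein gene *Uqcrh* by 0.51, and *Uqcr10* and *Uqcrq* also passed, with calls lost in 3 of 29 alternatives for *Uqcr11*, 2 for *Uqcrh*, 4 for *Uqcr10* and 6 for *Uqcrq*, while *Uqcrc1* (0.22, adjusted p = 0.0505, edgeR) and *Uqcrb* (0.23, adjusted p = 0.334) did not.

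*Cox6b2* (ENSMUSG00000051811.14, chr7:4751792-4753094, minus strand) had the largest fold of the members called. It had 86.4, 112, 82.8 and 86.4 CPM in CMP *Renilla* libraries and 30.6, 36.6, 36.3 and 39.7 CPM in LSK *Renilla* libraries. The log2 fold change was 1.36 (SE 0.16, adjusted p = 2.83e-05, edgeR), and it ran from 1.21 to 1.47 over 29 alternatives, each past the threshold. Its widely expressed paralog *Cox6b1* rose by 0.31 (SE 0.10, adjusted p = 0.0437, edgeR), a call that was lost in 22 of the 29 alternatives. Of the other complex IV genes, *Cox5a*, *Cox6a1*, *Cox7a2* and *Cox7b* were also higher. Of the ATP synthase, *Atp5d* of the central stalk, *Atp5g3* of the c-ring, *Atp5o* of the peripheral stalk and the proteolipid gene *Atp5mpl* (0.52, SE 0.15, adjusted p = 0.0175, edgeR) were. Of these calls, that of *Atp5o* was lost in 22 of 29 alternatives, *Cox6a1* in 13, *Cox5a* in 12, *Cox7a2* and *Atp5g3* in 10, *Atp5d* in 8, *Cox7b* in 7 and *Atp5mpl* in 6. The catalytic genes *Atp5a1* (0.18, adjusted p = 0.0854) and *Atp5b* (0.16, adjusted p = 0.169) did not pass.

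The number of members called rested on few libraries and on the scaling, and is given with the alternatives in the closing section. It was 4 without LSK *Renilla* replicates B and D, the libraries with the highest neutrophil marker sums. The part of the erythroid, megakaryocyte and neutrophil transcripts in these differences was not tested.

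With the *Spehd* shRNAs, fewer members were called between the cell types, and the 3 comparisons have no libraries in common. With sh10, 3 members rose, *Cox6b2* (0.93), *Uqcrfs1* (0.34) and *Uqcrc2* (0.29), and *Cox4i2* fell, where 7.51% of all genes rose and 8.58% fell, and the median of the 41 members was 0.17. With sh20, *Cox6b2* (1.15) and the c-ring gene *Atp5g1* (1.25) rose and *Cox4i2* fell, where 5.94% of all genes rose and 8.64% fell, and the median was 0.05. *Cox4i2* passed the filter on low counts only through the LSK libraries, where it was high. Its calls with sh10 and sh20 are thus a description and no support for a difference. *Atp5g1* had 7.79 and 11.1 CPM in CMPs and 3.44 to 4.93 CPM in LSK cells with sh20, from 16 to 63 counts a library, and its call was lost in 16 of 28 alternatives. With sh10 the call of *Uqcrc2* was lost in 16 of 28 alternatives, that of *Uqcrfs1* in 7 of 28 and that of *Cox4i2* in 6 of 27. Markers of other cells differed here too. With sh10, 5 of 10 erythroid markers were higher in CMPs, and 9 of 10 LSK, 6 of 9 myeloid progenitor, 4 of 8 neutrophil, 3 of 5 macrophage and 1 of 8 lymphoid markers were lower. With sh20, 4 of 10 erythroid, 1 of 5 megakaryocyte and 3 of 8 lymphoid markers were higher, and 7 of 10 LSK and 8 of 9 myeloid progenitor markers were lower. Their part in the values of the members was not tested.

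*Cox6b2* thus rose with each of the 3 shRNAs, and held its call in all 28 alternatives with sh10 and in all 28 with sh20. Its CPM over the 9 CMP libraries ran from 69.8 to 112 and over the 10 LSK libraries from 30.6 to 52.8. Its raw counts, 328 to 459 against 133 to 276, did not overlap either. *Uqcrc2* and *Uqcrfs1* also did not overlap in CPM between all CMP and all LSK libraries, so 3 of 41 members were higher without overlap where 3.28% of all genes were. *Uqcrc2* ran from 206 to 238 CPM in CMPs and from 149 to 193 CPM in LSK cells, and *Uqcrfs1* from 142 to 183 and from 118 to 141 CPM.
*Cox4i2* (ENSMUSG00000009876.13, chr2:152754173-152765037, plus strand) was the only member that was lower in every CMP than in every LSK library, where 2.97% of all genes were. It had 4, 2, 4 and 1 counts in CMP *Renilla*, 4, 1 and 2 in CMP sh10 and 1 and 0 in CMP sh20 libraries. In LSK cells it had 5, 9, 8 and 10 counts with *Renilla* shRNA, 11, 30 and 10 with sh10 and 16, 25 and 10 with sh20. The highest CMP value, 1.05 CPM, and the lowest LSK value, 1.06 CPM, nearly touched.
Summed over libraries and scaled by their effective sizes, *Cox4i2* was 2.63-fold higher in LSK cells with *Renilla* shRNA (95% interval 1.29 to 5.79, exact Clopper-Pearson, for counting error only), 6.44-fold with sh10 (2.91 to 16.8) and 39.0-fold with sh20 (6.69 to 1570), the last against 1 count. *Cox4i2* passed the filter on low counts only through the LSK libraries, where it was high, so the tests that follow are a description and no support for the difference. In edgeR the adjusted p was 0.168 with *Renilla* shRNA, 0.0290 with sh10 and 0.00620 with sh20. Without LSK sh10 replicate B, the library with 30 counts that stood apart from its group, the log2 fold change of CMP over LSK with sh10 went from -2.64 to -1.87 and the call was lost (adjusted p = 0.147, edgeR). The difference of the knockdown effect between the cell types was not past the threshold for this gene (adjusted p = 0.427, edgeR).

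**Figure D2:**
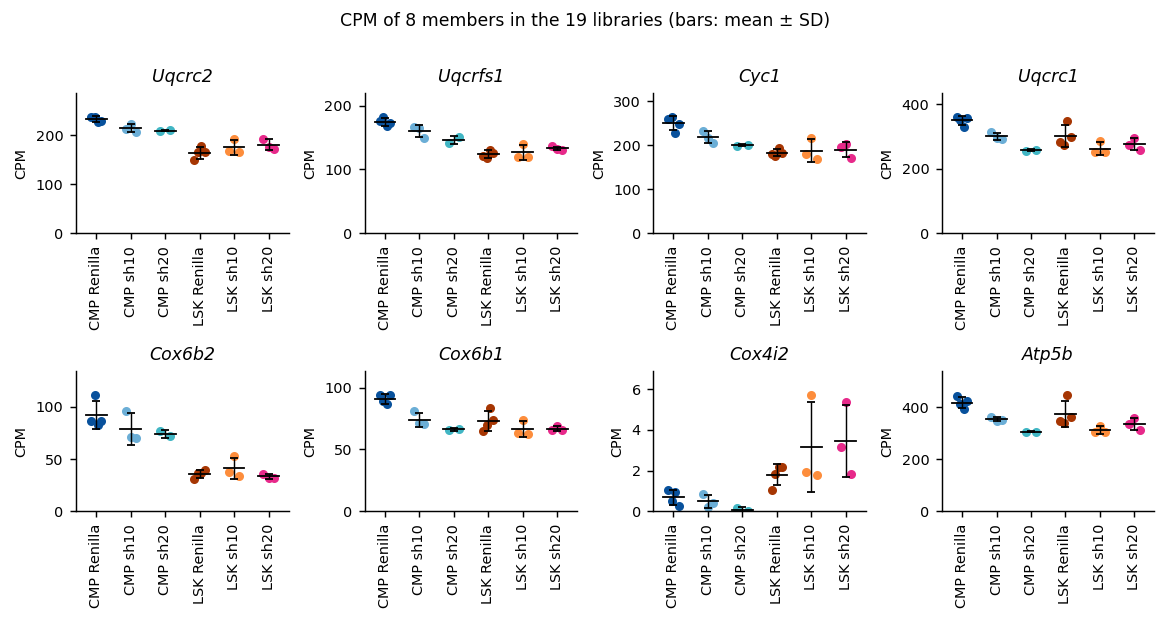
CPM of 8 members in each of the 19 libraries (points) by group, with the group mean and SD (bars). Cox6b2 is at 69.8 to 112 CPM in every CMP library and at 30.6 to 52.8 CPM in every LSK library, Cox4i2 is lower in every CMP library, and the CMP knockdown points of Atp5b lie below those of CMP Renilla.

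Knockdown of *Spehd* in CMPs was tested with both shRNAs as 1 group of 5 libraries against 4 *Renilla* libraries. Of 39 members tested, 36 had a negative log2 fold change in CPM after normalization, with a median of -0.31, where the median over all 12912 genes was 0.02. The FDR threshold of 0.05 was passed by none in edgeR, where 0.0774% of all genes were called lower, and 30 members had an unadjusted p under 0.05, as did 2149 of all 12912 genes. DESeq2, the tool of the study, called 21 of 35 members it tested, all lower, where 435 of 9054 genes were lower and 447 higher. The members of the 3 complexes had like values, with medians of -0.31 in complex III (9 of 9 negative), -0.32 in complex IV (12 of 13) and -0.31 in the ATP synthase (15 of 16).

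In 26 of the 39 members every knockdown library lay below every *Renilla* library in CPM, where 6.37% of all genes did. *Atp5b* (ENSMUSG00000025393.12, chr10:128083273-128090391, plus strand) had 442, 413, 395 and 423 CPM with *Renilla* shRNA, 362, 348 and 349.9 CPM with sh10 and 306 and 307 CPM with sh20. Its log2 fold change was -0.32 (SE 0.06, adjusted p = 0.0700, edgeR).
*Uqcrc1* (ENSMUSG00000025651.14, chr9:108936633-108949623, plus strand) had 362, 353, 331 and 359 CPM with *Renilla* shRNA, 314, 295 and 294 CPM with sh10 and 256 and 259.7 CPM with sh20. Its log2 fold change was -0.31 (SE 0.07, adjusted p = 0.0726, edgeR). Neither group overlapped the controls in CPM.
*Cox4i1* had 135 to 149 CPM with *Renilla* shRNA, 114 to 128 CPM with sh10 and 103 CPM in both sh20 libraries, with a log2 fold change of -0.34 (adjusted p = 0.0826, edgeR).

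The raw counts of the same genes, before scaling to the totals, are given beside the CPM. *Atp5b* had 1677, 1694, 1702 and 1722 counts with *Renilla* shRNA, 1723, 1732 and 1675 with sh10 and 1807 and 1746 with sh20. *Uqcrc1* had 1375 to 1461 counts with *Renilla* shRNA, 1408 to 1492 with sh10 and 1509 and 1479 with sh20. Raw counts were higher on average upon knockdown for 36 of the 39 members, by a median of 0.04 on the log2 scale. No member was lower without overlap, and neither count was made for all genes. By classes of counts per exonic base, the median raw log2 ratio of all genes tested was 0.23 (at least 0.3) to 0.45 (0.03 to 0.1). Over the same libraries the totals rose from 3857980 to 4314959 with *Renilla* shRNA to 4918631 to 5965155 with *Spehd* shRNAs, a log2 ratio of the means of 0.38, with no overlap.

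Across all 19 libraries the counts of the most abundant members barely moved while the totals did. Totals had a coefficient of variation of 13.3%, and *Atp5b* counts ran from 1638 to 1807, with one of 2.26%. *Atp5a1*, the alpha subunit of the ATP synthase, ran from 1925 to 2135 counts (2.77%) and *Uqcrc1* from 1279 to 1509 (4.15%). The median over the 26 members with at least 0.3 counts per exonic base was 9.37%, and over all 1742 genes of that class it was 16.2%. Of the 46 members 20 spanned less than 1.5-fold, a count not made for all genes. These genes stood at 0.888 (*Atp5b*), 0.857 (*Uqcrc1*) and 0.822 (*Atp5g3*) counts per exonic base after the authors had removed duplicate alignments, a step that keeps 1 read per alignment position. A CPM of a gene whose count stays the same falls as the total rises.

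**Figure D3:**
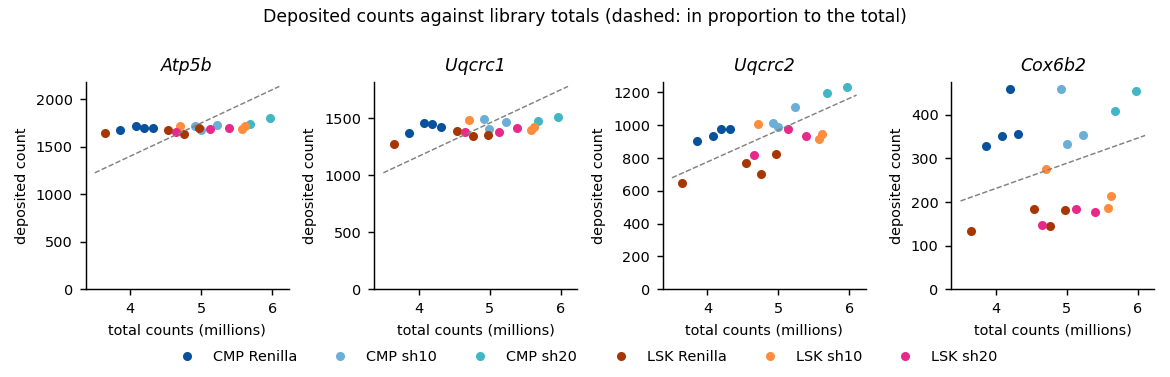
Deposited counts of 4 members in each library (points, coloured by group) against the total count of that library. The dashed line is a count in proportion to the total. Totals run from 3647318 to 5965155, while Atp5b stays within 1638 to 1807 counts and Uqcrc1 within 1279 to 1509.

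Genes with many counts per base, the members included, had a negative median upon knockdown. Among all 1742 genes with at least 0.3 counts per exonic base, the median log2 fold change in CMPs was -0.13 and 76.4% were negative. All 26 members in that class were negative, with a median of -0.31. Among 3788 genes with 0.1 to 0.3 counts per base the median was 0.03, and the 8 members in that class had a median of -0.32, all negative. After correction of each library for its trend with counts per base, an offset chosen with the data in view, the median of the members was -0.16, and it was -0.05 when the log2 total entered a fit of 19 libraries as a covariate, where the median of all genes was -0.07. The part of the totals and of duplicate removal in the lower CPM of these genes was not tested, and in CMPs the totals and the groups cannot be told apart. Summed erythroid markers, higher in CMPs than in LSK cells, were 1275 to 1428 CPM upon knockdown and 1410.5 to 1592 CPM with *Renilla* shRNA, and none of the 10 passed the threshold (list median -0.31). Of 6 lymphoid markers tested 1 was lower (list median -0.35), and 9 of 10 LSK markers had a negative log2 fold change with none called (list median -0.33).

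**Figure D4:**
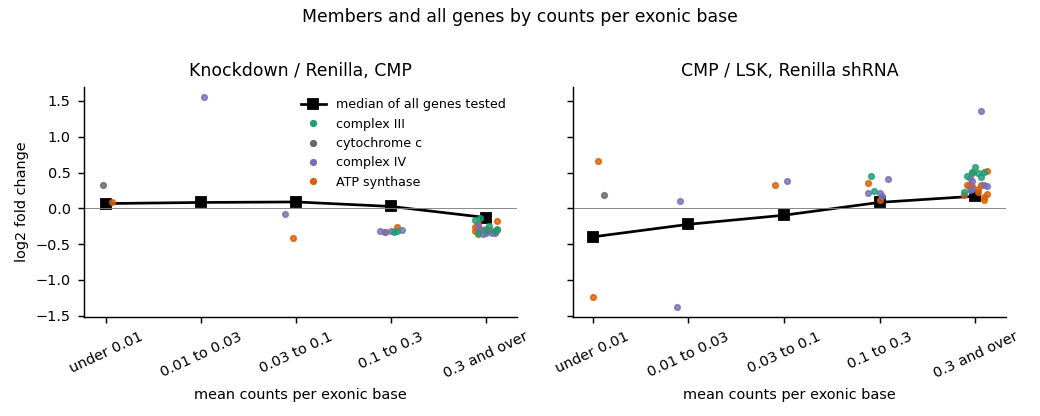
Log2 fold change of Spehd knockdown against Renilla shRNA in CMPs (left) and of CMP against LSK with Renilla shRNA (right), by 5 classes of mean counts per exonic base, for each member (points, coloured by complex and spread sideways for clarity) and as the median of all genes tested (squares). On the left, genes with at least 0.3 counts per base have a median of -0.13, and the 26 members in that class a median of -0.31.

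Taken per shRNA against the same 4 *Renilla* libraries, 2 of 40 members were lower with sh10 at an FDR under 0.05 in edgeR and 10 with sh20, where 0.991 and 4.27% of all genes were called lower. With sh10 these were *Atp5a1* (log2 fold change -0.23, SE 0.04, adjusted p = 0.0379) and *Atp5b* (-0.24, SE 0.05, adjusted p = 0.0451), and the median of the members was -0.25. With sh20 they were the F1 head and stalk genes *Atp5a1* (-0.46, adjusted p = 0.00730), *Atp5b* (-0.43), *Atp5c1* (-0.42) and *Atp5d* (-0.41), the c-ring gene *Atp5g3* (-0.35), the complex IV genes *Cox4i1* (-0.47), *Cox5a* (-0.40) and *Cox6a1* (-0.45), and *Uqcrc1* (-0.43) and *Cyc1* (-0.31) of complex III. The median was -0.36. Among the 1742 genes with at least 0.3 counts per exonic base, 57 were called lower with sh10 and 283 with sh20. Of 18 alternatives for each gene, the sh20 call was lost in 2 to 4 for *Atp5a1*, *Atp5b*, *Atp5c1*, *Atp5d*, *Cox4i1* and *Uqcrc1*, in 12 for *Atp5g3* and in 14 for *Cox5a*, *Cox6a1* and *Cyc1*, and the sh10 call in 11 for *Atp5a1* and 12 for *Atp5b*, with the direction the same in each. A fit of all 19 libraries gave 0 calls with sh10 and 6 with sh20, and adding the log2 total to that fit as a covariate gave 0 with each. The 2 sh20 libraries stood apart from each other. Without replicate B the median of the members was -0.37, and without replicate C it was -0.33. Both fits leave 1 sh20 library, which is assumed to vary like the other groups.
Markers of other cells moved in the same comparisons. With sh10, 3 of 6 lymphoid markers tested were lower, the T cell genes *Cd3e*, *Cd3d* and *Cd2* (list median -2.10, summed level 109 to 182 CPM against 179 to 257 CPM with *Renilla* shRNA). Of 10 LSK markers 1 was lower with each shRNA. With sh20, 3 of 10 erythroid markers were lower and 1 was higher (summed level 1298 to 1317 against 1410.5 to 1592 CPM), 1 of 6 lymphoid markers was lower (206 to 299 CPM), and 1 of 5 macrophage markers, *C1qa*, was higher (259 to 440 against 178 to 339 CPM). Their part in the values of the members was not tested.

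The 2 shRNAs were also set against each other. *Atp5a1* was lower with sh20, at 362 and 369 CPM, than with sh10, at 425 to 446 CPM (log2 fold change -0.23, SE 0.05, adjusted p = 0.0386, edgeR), and was the 1 of 40 members called, where 3.64% of all genes were lower. Its raw counts were 2135 and 2101 with sh20 and 2060 to 2119 with sh10. The libraries with sh20 had the larger totals, 5680969 and 5965155 against 4918631 to 5228700. In the same comparison 2 of 6 lymphoid markers were higher with sh20 (list median 1.25), 1 of 5 macrophage markers was higher (list median 2.12), and of 10 LSK markers 1 was lower and 1 higher. Their part was not tested.

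With all libraries no member was called higher upon knockdown in CMPs in edgeR, and 3 of 39 had a positive log2 fold change with both shRNAs as 1 group. *Cox6a2*, the heart and muscle form of subunit 6a, had 6, 4, 9 and 14 counts in CMP *Renilla* libraries, 31, 18 and 36 with sh10 and 55 and 16 with sh20, a log2 fold change in CPM of 1.55 for both shRNAs (SE 0.52, adjusted p = 0.162, edgeR). In LSK cells it had 17, 1, 9 and 6 counts with *Renilla* shRNA, 35, 42 and 26 with sh10 and 6, 8 and 5 with sh20. In raw counts the sh10 libraries were thus above the controls in both cell types and the sh20 libraries in CMPs only, in CPM one sh20 library lay within the CMP controls, and no comparison of all libraries passed the threshold. *Itgad* lies on the other strand over 10.3% of this gene. The c-ring gene *Atp5g2* had 0 to 8 counts with *Renilla* shRNA and 18 and 22 with sh20 in CMPs (adjusted p = 0.199, edgeR). It passed the filter on low counts only through the sh20 libraries, where it was high, so this test is a description. *Cycs* had 17 to 38 counts with *Renilla* shRNA, 26 to 41 with sh10 and 80 and 26 with sh20.

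**Figure D5:**
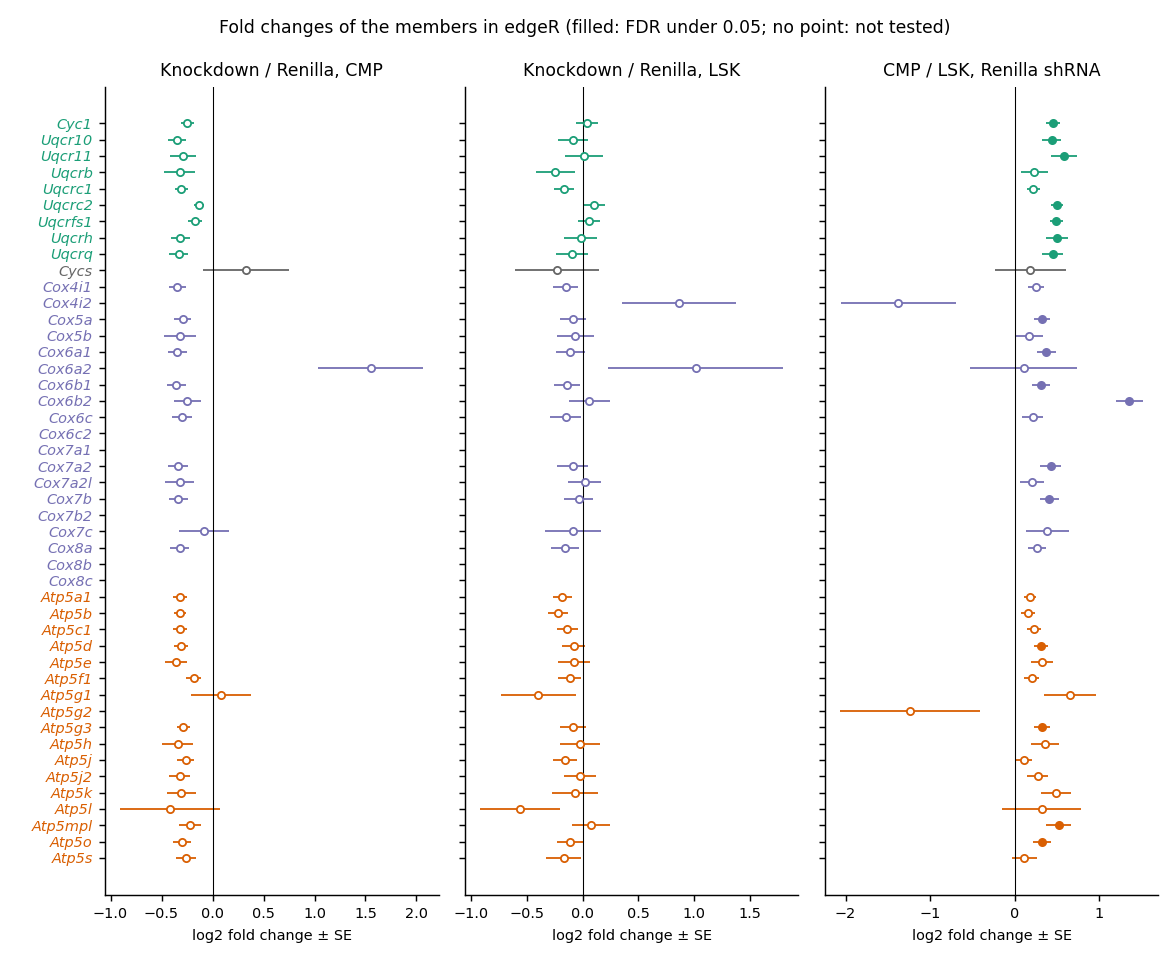
Log2 fold changes of the members tested for the main comparisons of knockdown in each cell type and of CMP against LSK, ± SE, coloured by complex, with called members filled. Upon knockdown in CMPs 36 of 39 members are negative with a median of -0.31, in LSK cells 31 of 40 with a median of -0.09, and between CMPs and LSK cells with Renilla shRNA 39 of 41 are positive.

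In LSK cells no member was called upon knockdown. Of 40 tested, 31 had a negative log2 fold change, with a median of -0.09, and the median ran from -0.17 (without LSK *Renilla* replicate A) to -0.03 (without LSK *Renilla* replicate C) when 1 library was left out. None passed the threshold in edgeR, where 0% of 13441 genes were called lower. An unadjusted p under 0.05 was found for 2 members, *Atp5b* (-0.22) and *Atp5a1* (-0.18), and for 492 genes, and DESeq2 called no gene. *Atp5b* had 346, 340.3, 449 and 363 CPM with *Renilla* shRNA, 303 to 329 CPM with sh10 and 313 to 357 CPM with sh20, so the groups overlapped. LSK *Renilla* replicate C, with 449 CPM, had the smallest total of all libraries, 3647318. For sh10 alone the median was -0.07, and 28 of 40 members were negative. For sh20 it was -0.13 (-0.18 and -0.06 without the same 2 libraries), and 35 of 40 were. No member was called with either shRNA or between them in edgeR or DESeq2.

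The effect in CMPs minus that in LSK cells was negative for 35 of 41 members, with a median of -0.24. The threshold was passed by none in edgeR, where 0.0531% of all genes were called lower, while 6 members and 1518 genes had an unadjusted p under 0.05. *Cyc1* (-0.31, SE 0.11), *Uqcrc2* (-0.25, SE 0.10) and *Uqcrfs1* (-0.25, SE 0.10) of complex III were among those 6. A difference between the cell types in the effect of the knockdown was thus not shown for any member.

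Other genes of the pathway were taken from fixed lists. Upon knockdown in CMPs, the median log2 fold change was -0.03 for 6 assembly factors of complex III (-0.07 with sh10, -0.12 with sh20) and 0.03 for 23 of complex IV (-0.17 with sh10, 0.13 with sh20). It was 0.07 for 5 genes of a further ATP synthase list, which holds the inhibitor gene *Atpif1* and assembly factor genes, not subunits alone. The difference between these lists and the subunits was not tested. Mitochondrially encoded partners had a median of -0.30 (2 genes tested, *mt-Co1* and *mt-Cytb*), complex I subunits one of -0.28 (35 of 36 negative), and so did cytosolic ribosomal proteins, a family outside respiration (70 of 80 negative, median -0.28). In edgeR no gene of these lists was called with both shRNAs as 1 group. With sh20, both mitochondrial genes were lower (*mt-Cytb* -0.45, adjusted p = 0.00930, and *mt-Co1* -0.37, adjusted p = 0.0313, edgeR), as were 5 of 36 complex I and 6 of 80 ribosomal genes.
Between CMPs and LSK cells with *Renilla* shRNA, 21 of 36 complex I genes were higher, with a median of 0.38, as were 17 of 82 ribosomal genes (median 0.40). Of 23 complex IV assembly factors 5 were higher, among them the copper delivery genes *Cox11* (0.72, adjusted p = 0.00227, edgeR) and *Sco1* (0.56, adjusted p = 0.0363). Of the further ATP synthase genes 2 of 5 were, *Usmg5* (0.68) and the inhibitor gene *Atpif1* (0.55, adjusted p = 0.00222, edgeR). None of 6 complex III assembly factors was called (median 0.33, 6 of 6 positive), and neither of 2 mitochondrially encoded partners was (median 0.16).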

How the data were processed

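RNA of sorted cells was amplified with SMART-Seq v4 Ultra Low Input and sequenced on an Illumina HiSeq. Reads were aligned by the authors with STAR (mm10), duplicates were dropped with Picard, and HTSeq-count gave the deposited whole counts per GENCODE gene. The study's methods give default parameters for each tool and an earlier GENCODE release than the one used here for lengths. Reads in no gene (51.9 to 53.8% of those in 1 gene, in several or in none) and reads aligned more than once stayed out. The normalized table was not used.

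Counts of 19 libraries were tested with edgeR 4.0.16 in R 4.3.3 (TMM, filterByExpr at 10 counts, total of at least 15, quasi-likelihood, Benjamini-Hochberg over all genes tested, FDR 0.05). Knockdown was fitted within a cell type, pooled or per shRNA, and CMP against LSK and the interaction over all 6 groups. CPM used TMM factors over all libraries. Exon lengths and gene positions are those of GENCODE vM21 (GRCm38). DESeq2 1.42.0, other scalings and filters, the replicate block, covariates and leaving out each library were alternatives. Tests were checked on simulated data. Genes named are core subunits, isoforms and members called. Members, lists and rules were chosen with earlier results of these data known. Values of some of the marker genes are not reported here.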

Additional observations from a re-analysis of the deposited data

Results flagged for a closer look

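In 86 combinations of a member with 1 of the 2 *Renilla* groups of 4 libraries, a single library stood apart from the other 3 by Dixon's criterion 3 times, where chance gives about 1 in 20. *Cox6b2* had 111.8 CPM in CMP *Renilla* replicate B and 82.8 to 86.4 CPM in the others. *Uqcrb* had 26.2 CPM in CMP *Renilla* replicate C and 29.7 to 30.2 CPM in the others. *Atp5l*, whose transcript is largely shared with other loci, had 14.03 CPM in LSK *Renilla* replicate D and 6.03 to 6.82 CPM in the others.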

How the results depend on the processing

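Libraries of 3647318 to 5965155 counts limit these results for low genes. Medians are of log2 fold changes of the members, and causes were not tested. The covariate was added to the fit of all 19 libraries.
CMP against LSK with *Renilla* shRNA gave 17 calls. These became 6 with upper quartile scaling, 4 without a filter, 6 with an offset for the trend with counts per base (added with the data in view, median 0.15) and 4 without LSK *Renilla* replicates B and D (also chosen then). Leaving out 1 library gave 7 (LSK *Renilla* replicate A) to 23 (LSK sh10 replicate B), with 8 without CMP *Renilla* replicate B and 10 without CMP *Renilla* replicate A or LSK *Renilla* replicate B. Of all genes 1663 of 15066 were higher in the main fit and 1212 with upper quartile scaling. They were 1166 of 34578 without a filter, 1305 of 14993 with the offset and 776 of 14983 without LSK *Renilla* replicates B and D. Without LSK *Renilla* replicate A they were 1200 of 15009, and without LSK sh10 replicate B 2341 of 14953.
With sh10 the 4 calls became 2 with upper quartile scaling (median 0.037, with -0.11 over all genes), 1 without a filter and 2 with at least 10 counts in every library, and the median was 0.066 with the offset. Leaving out 1 library gave 1 to 5 calls (1 without CMP sh10 replicate B, 2 without CMP sh10 replicate A or C or LSK sh10 replicate A) and medians of 0.10 to 0.27 (0.27 without LSK sh10 replicate B). Of all 15066 genes 1131 rose and 1293 fell in the main fit, and 764 and 1629 with upper quartile scaling. They were 1193 and 1518 of 34578 without a filter, and 876 and 1248 of 10494 with at least 10 counts in every library. With sh20 the median, 0.048, was 0.19 with the log2 total as a covariate, 0.010 with upper quartile scaling, and 0.031 (without LSK sh20 replicate A) to 0.11 (without LSK sh20 replicate B). The interaction median was -0.11 with the covariate and -0.11 with the offset.
In CMPs, both shRNAs pooled gave 0 calls and 9 with upper quartile scaling, 21 with DESeq2, 6 in the fit of all 19 libraries and 12 with the shRNAs as separate groups. Leaving out 1 library gave 0 to 2 (2 without CMP sh20 replicate B). Its median was -0.050 with the covariate and -0.16 with the offset. Of all genes 10 of 12912 were lower in the main fit, 284 with upper quartile scaling and 435 of 9054 with DESeq2. They were 323 of 15066 in the fit of all 19 libraries and 487 of 13824 with the shRNAs as separate groups.
The 2 calls with sh10 became 5 with upper quartile scaling and with DESeq2, and 0 without a filter, with the covariate, with all 19 libraries and with the offset. The median was -0.048 with the covariate and -0.13 with the offset, and leaving out 1 library gave 0 to 3 calls, with 1 without CMP *Renilla* replicate B and 0 without any sh10 or other *Renilla* library. Of all genes 338 of 13824 were lower with upper quartile scaling and 578 of 13698 with DESeq2. They were 297 of 29978 without a filter, 1 of 15066 with the covariate, 107 of 15066 with all 19 libraries and 79 of 13760 with the offset.
The 10 calls with sh20 became 15 with DESeq2 and 14 with upper quartile scaling, 6 without a filter and with all 19 libraries, 0 with the covariate and 2 with the offset, with medians of -0.046 and -0.18. Leaving out any sh10 library or CMP *Renilla* replicate A, B or D gave 6 calls, and leaving out CMP *Renilla* replicate C gave 8. Of all genes 1009 of 15441 were lower with DESeq2, 850 of 13824 with upper quartile scaling and 585 of 29978 without a filter. They were 476 of 15066 with all 19 libraries, 18 of 15066 with the covariate and 216 of 13760 with the offset.
The 1 call between the shRNAs in CMPs became 0 without a filter, with the covariate, with all 19 libraries and with the offset, with a reversed median of 0.0057 with the covariate and of -0.15 to -0.061 without 1 library (CMP sh10 replicates C and A). Leaving out 1 library gave 0 to 2 calls, with 2 without CMP sh20 replicate C and 0 without any sh10 library, CMP sh20 replicate B or CMP *Renilla* replicate B or D.
In LSK cells no member was called in edgeR under any alternative. Medians reversed with the covariate to 0.096 with sh10, 0.022 with sh20 and 0.068 pooled. For sh10 leaving out 1 library gave -0.17 (LSK sh10 replicate B) to -0.0061. Between the shRNAs the median was 0.0050 with all 19 libraries, and -0.12 to 0.057 without 1 library (0.057 without LSK sh10 replicate B).
The labels do not say that replicate letters mark shared animals. Within a cell type, deviations of libraries with the same letter correlated by -0.045 to 0.044 in CMPs (7 pairs) and -0.079 to 0.044 in LSK cells (9 pairs). Between CMP and LSK libraries of the same shRNA and letter they correlated by -0.00069 to 0.21 (9 pairs), not over 0.1 in every pair, and 7 of 9 CMP libraries correlated best with their own letter, a hint from the data and not from the design. A replicate block of letters within each shRNA, added with the data in view, gave 9 calls with *Renilla* shRNA, 1 with sh10 and 2 with sh20 for CMP against LSK. With the letters as a replicate block the calls in CMPs were 0 with sh10, 0 with sh20 and 0 between them.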
